A study of Mus musculus with 12 samples.

Results

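Drd1, Drd2, Adora2a, Rgs9, Pde10a, Ppp1r1b and Six3 are dopamine receptors and signalling genes best known from the striatum, and their RNA was measured here in the ventral hippocampus. They were chosen by symbol, and all 7 were present among the 17564 genes of both deposited tables. The study asked how long exposure to corticosterone (CORT), a stress hormone of the adrenal cortex, changes gene expression in this region, and whether a variant of the gene for brain-derived neurotrophic factor (BDNF) alters that response. Its 4 groups were wild-type (WT) mice on vehicle (VEH), WT mice on CORT, mice heterozygous for BDNF Val66Met (BDNF het-Met) on VEH, and BDNF het-Met mice on CORT, with 3 libraries each. All mice were males on a C57BL/6 background. Treatment began at 2 months of age and lasted 6 weeks. CORT was given in the drinking water at 25 mg/l in 1% ethanol, and VEH was 1% ethanol without CORT. The variant is a knock-in that changes a valine of the BDNF pro-region to methionine, and it is carried by every cell and not by hippocampal cells alone. Each library held the RNA of 2 animals, with left and right sides mixed at random, so the spread between libraries is that between pools.

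In the striatum, dopamine acts on projection neurons of 2 main kinds. Those with the D1 receptor (Drd1) raise cyclic AMP through stimulatory G proteins, and those with the D2 receptor (Drd2) lower it, while the adenosine receptor encoded by Adora2a raises it in the D2 kind. Downstream, Ppp1r1b encodes DARPP-32, which inhibits protein phosphatase 1 once protein kinase A has phosphorylated it, Pde10a encodes a phosphodiesterase that breaks down cyclic AMP and cyclic GMP, and Rgs9 encodes a protein that shortens G protein signals. Six3 is a homeobox transcription factor of forebrain and eye development that is also required for D2-type projection neurons. In the hippocampus dopamine receptors are sparser, with D1-like receptors on granule and pyramidal cells and D2 receptors prominent on mossy cells of the dentate hilus.

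None of the 7 genes changed under CORT in either genotype by the test used. Pde10a came closest, with opposite signs in the 2 genotypes. Its log2 fold change (CORT minus VEH) was 0.10 ± 0.05 (standard error) for WT and -0.08 ± 0.04 for BDNF het-Met mice. All 7 genes lay below VEH in BDNF het-Met mice and 5 of 7 lay above it in WT mice, but most intervals were wide. The sign of every value rests on the names of the deposited comparisons. With it, glucocorticoid-induced genes such as Fkbp5 were above VEH in both genotypes, while others such as Nfkbia were below. The text of the study describes Tnnt1 and Chn2 in the other direction, as higher under CORT in BDNF het-Met mice. It also lists both in a module of co-expressed genes whose called genes it describes as higher under VEH in those mice. So the sign is not settled by single genes. Were it the other way, every higher and lower here would be exchanged, with the same sizes and p. The deposited tables hold fitted values over libraries, so the value of each library was not analysed here, and every error in the text is a standard error of the fit. Moderated t tests of limma-voom, which borrow spread across genes, gave the main p of each genotype. For differences and averages, p came from t tests computed here with the standard errors of that fit. Where ordinary standard errors are named, they replaced the moderated ones. Adjusted p-values are Benjamini-Hochberg adjustments over all 17564 genes. The study called differential expression where the uncorrected p was under 0.05 and the change exceeded 1.3-fold.

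Expression of the members spanned a wide range. Compared per kilobase of exon, Ppp1r1b was the most abundant, with a mean level of 3.88 log2 CPM per kb over all libraries, and Pde10a followed at 2.70. Rgs9 lay at 0.69, Drd1 at 0.39 and Drd2 at 0.27 log2 CPM per kb. Adora2a, at -0.67, and Six3, at -3.05 log2 CPM per kb, were the lowest. The spread of these levels over libraries was not analysed here, so the order of neighbours as close as Drd1 and Drd2 is not settled. The median level over all genes was 1.96 log2 CPM per kb, so Ppp1r1b and Pde10a lay above it and the other 5 below. Markers of hippocampal neurons were present as the tissue label implies. All 12 genes of that list, among them Prox1 of granule cells and Fibcd1 of CA1 pyramidal cells, had levels from 2.02 to 6.53 log2 CPM per kb, with a median of 4.30.

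The receptors were examined first. Drd1 (ENSMUSG00000021478, GRCm38 chromosome 13, 54051183 to 54055705, minus strand, protein coding) showed a log2 fold change of -0.27 ± 0.44 for WT and -0.53 ± 0.37 for BDNF het-Met mice. The 95% confidence intervals ran from -1.25 to 0.70 and from -1.35 to 0.30, with uncorrected p of 0.551 and 0.187 by limma. Drd1 and Rgs9 were the members below VEH in both genotypes, and neither passed the test in either. Drd2 (ENSMUSG00000032259, chromosome 9, 49340627 to 49408177, plus strand, protein coding) had log2 fold changes of 0.10 ± 0.27 for WT and -0.35 ± 0.23 for BDNF het-Met mice, with uncorrected p of 0.726 and 0.167 by limma. Its long and short splice forms, which differ in where they act at the synapse, are counted together.

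Adora2a (ENSMUSG00000020178, chromosome 10, 75316877 to 75334784, plus strand, protein coding) had the largest value of the 7 in BDNF het-Met mice. Its log2 fold change was -0.80 ± 0.61 there, with an uncorrected p of 0.220 by limma, and 0.28 ± 0.79 in WT mice, with a p of 0.729. The interval in BDNF het-Met mice, -2.15 to 0.55, covers anything from a strong fall to a modest rise. The gene had a mean of 0.94 log2 CPM.

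Drd5, a D1-like receptor that is not among the 7, was fixed as part of the dopamine receptor list. It was the dopamine receptor of highest level per kb among those measured, at 1.46 log2 CPM per kb, and the one of them above VEH in both genotypes. Its log2 fold change was 0.36 ± 0.16 in WT mice (uncorrected p 0.0495, adjusted p 0.999 by limma) and 0.26 ± 0.15 in BDNF het-Met mice (uncorrected p 0.104, adjusted p 0.478). Averaged over both genotypes it was 0.31 ± 0.11, with p 0.0165 before adjustment and 0.280 after it, from the limma standard errors. An antisense gene, Gm26560, shares 1531 exon bases with Drd5, and whether strand was used in counting is not given in the sources used here. Drd3 and Drd4, also on the dopamine receptor list, were not among the genes with values.

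**Figure D1:**
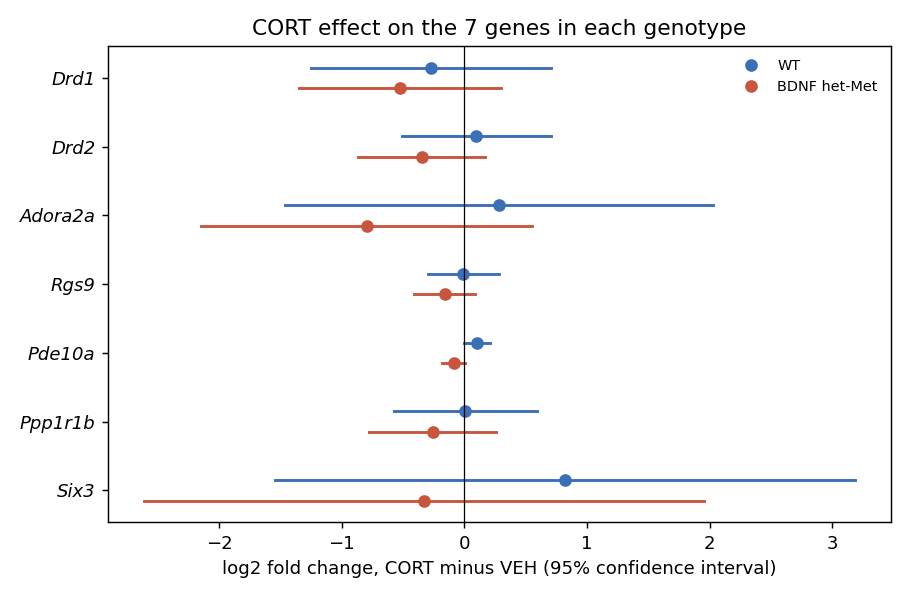
Log2 fold change (CORT minus VEH, horizontal axis) of each of the 7 genes in WT (blue) and BDNF het-Met mice (red), with points for the fitted value and bars for the 95% confidence interval. All 14 intervals cross 0, those of Pde10a are the narrowest, and those of Six3 and Adora2a the widest.

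Among the intracellular signalling genes, Pde10a was measured most precisely. Pde10a (ENSMUSG00000023868, chromosome 17, 8525372 to 8986648, plus strand, protein coding) was the member of highest mean expression, 6.39 log2 CPM. In WT mice its interval ran from -0.01 to 0.21, with p 0.0605 before adjustment and 0.999 after it by limma. In BDNF het-Met mice it ran from -0.18 to 0.01, with p 0.0738 before adjustment and 0.427 after it by limma. As folds these values were 1.07 and 0.943. Both intervals lie inside ± 0.379, the log2 of the 1.3-fold minimum of the study, so a change of that size was not within the 95% interval in either genotype. With the ordinary standard error of the gene itself, in place of the moderated one, the uncorrected p was 0.0395 for WT and 0.0485 for BDNF het-Met mice, and the adjusted p stayed at 0.9996 and 0.414. The 3 genes annotated within Pde10a lie on the opposite strand and share no exon base with it, and 2 of them were measured. Of these, both named after their values were seen, the protein-coding Gm17087 had log2 fold changes of 0.14 ± 0.12 in WT mice against 0.25 ± 0.10 in BDNF het-Met mice. The processed pseudogene Gm15425 had log2 fold changes of -0.38 ± 0.15 for WT and 0.39 ± 0.13 for BDNF het-Met mice, each opposite in sign to Pde10a. Reads of a processed pseudogene can be shared with its parent gene, so its values are uncertain.

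Ppp1r1b, by contrast, was abundant but imprecise. Ppp1r1b (ENSMUSG00000061718, chromosome 11, 98348404 to 98357796, plus strand, protein coding) showed a log2 fold change of 0.01 ± 0.27 for WT and -0.26 ± 0.23 for BDNF het-Met mice, with uncorrected p of 0.977 and 0.292 by limma. Its standard error of 0.27 in WT mice compares with a median of 0.06 over the 500 genes nearest to it in mean expression. On the opposite strand, 1700003D09Rik shares 460 exon bases with it, and that gene was not among those with values. Rgs9 (ENSMUSG00000020599, chromosome 11, 109225355 to 109298129, minus strand, protein coding) was at -0.01 ± 0.13 for WT and -0.16 ± 0.11 for BDNF het-Met mice, with uncorrected p of 0.957 and 0.186 by limma. The WT interval of Rgs9, -0.30 to 0.28, again lies inside the 1.3-fold minimum, and that of BDNF het-Met mice, -0.41 to 0.09, does not. The retinal and striatal splice forms of Rgs9 are counted as 1 gene.

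Six3 (ENSMUSG00000038805, chromosome 17, 85613608 to 85629302, plus strand, protein coding), the transcription factor of the set, was near the limit of what was measured. Its mean expression was -0.60 log2 CPM, and its log2 fold changes of 0.82 ± 1.07 for WT and -0.33 ± 1.04 for BDNF het-Met mice had uncorrected p of 0.462 and 0.758 by limma. The antisense transcript Six3os1, which shares 106 exon bases with it, had log2 fold changes of 0.21 ± 0.99 and -1.27 ± 1.08. The intervals of Six3 ran from -1.55 to 3.19 and from -2.61 to 1.96, and reads within those 106 bases cannot be told apart without strand. Gm28528, also antisense, shares 168 exon bases with Six3 and was not among the genes with values.

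Counted together, 0 of 7 members passed an adjusted p of 0.05 by limma for WT and 0 of 7 for BDNF het-Met mice, against 0% of all genes in each. At an uncorrected p below 0.05 the member counts were also 0 and 0, where 3.83% of all genes passed for WT and 13.2% for BDNF het-Met mice. By the rule of the study, 0 members were differentially expressed in either genotype, against 1.25% and 3.24% of all genes. With the ordinary standard error 1 member, Pde10a, had an uncorrected p below 0.05 in each genotype, and 0 had an adjusted p below 0.05. The median log2 fold change of the members was 0.10 for WT and -0.33 for BDNF het-Met mice, and over all genes it was -0.0026 and -0.0061. All 7 members were below VEH in the BDNF het-Met genotype, where 51.8% of all genes were, and 5 of 7 were above VEH in WT mice, where 48.9% were. These 5, Adora2a, Drd2, Pde10a, Ppp1r1b and Six3, were above VEH for WT and below it for BDNF het-Met mice, a pattern held by 19.1% of all genes. These signs count values that did not pass the test, and genes of 1 cell type can vary together between libraries, so they are not 7 separate observations.

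How large an estimated change would have had to be to reach an uncorrected p of 0.05 differed greatly between members. For Pde10a a fold of 1.08 for WT and 1.07 for BDNF het-Met mice would have reached an uncorrected p of 0.05, and for Rgs9 a fold of 1.22 and 1.19. Ppp1r1b would have needed a fold of 1.5 and 1.43, Drd2 of 1.52 and 1.43, and Drd1 of 1.97 and 1.77. Adora2a would have needed a fold of 3.36 and 2.55, and Six3 of 5.16 and 4.88. An estimate below these sizes would not have reached that uncorrected p, and the adjusted threshold is stricter. These are sizes of the estimate, and a true change of such a size can still be missed.

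Precision was not set by expression level alone. Among the 500 genes nearest in mean expression, the standard error of Drd1 in WT mice lay at the 98.2nd percentile, that of Ppp1r1b at the 98.4th, that of Adora2a at the 99th and that of Six3 at the 99.6th. Drd2 lay at the 89.8th percentile and Rgs9 at the 78.6th, while Pde10a lay at the 16.8th. In BDNF het-Met mice the same 4 of 7 members lay above the 95th percentile. Wide errors were not particular to these genes. Of 29 other striatal projection neuron genes 10 lay above the 95th percentile in WT mice, and of 12 hippocampal neuron genes 10 did.

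**Figure D2:**
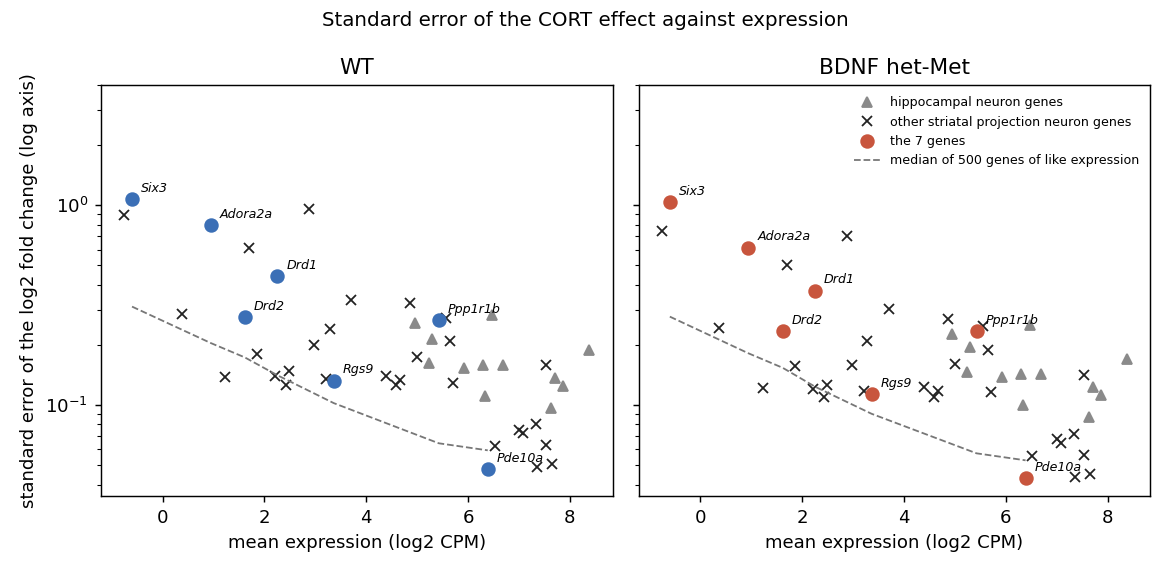
Standard error of each log2 fold change under CORT (vertical, log axis) against mean expression in log2 CPM (horizontal) in WT (left) and BDNF het-Met mice (right). Coloured circles are the 7 genes, crosses other striatal genes, triangles hippocampal neuron genes, and the dashed line joins the median of the 500 genes nearest to each of the 7 in expression. Drd1, Adora2a, Ppp1r1b and Six3 lie well above the dashed line, and Pde10a lies below it.

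Whether the CORT effect differed between genotypes was tested gene by gene as the difference of the 2 log2 fold changes, which share no library. The tables give no covariance of the 2 effects, and the error of the difference takes it as 0. For Pde10a the difference, BDNF het-Met minus WT, was -0.19 ± 0.06, with a 95% interval from -0.33 to -0.04. Its uncorrected p was 0.0151 with the limma standard errors, and 65 of the 17564 genes (0.37%) had a smaller one. The adjusted p over all genes was 0.9999, so the difference did not pass the correction. For the difference, 1 of the 7 members reached an uncorrected p below 0.05, against 2.41% of all genes, and 0 passed an adjusted p of 0.05, as did 0% of all genes. With ordinary standard errors or either centring, the uncorrected p of the Pde10a difference stayed between 0.0098 and 0.0167. An expression minimum cannot change that p. Under these alternatives and the minimum, its adjusted p lay between 0.9998 and 0.99998.

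The other 6 differences were also negative, where 51.2% of all genes had a negative difference, and all 6 had intervals that cross 0. They ranged from -0.15 ± 0.17 for Rgs9 to -1.15 ± 1.49 for Six3, with uncorrected p from 0.243 for Drd2 to 0.669 for Drd1. The interval for Adora2a, -3.29 to 1.13, leaves room for a large difference in either direction. Averaged over both genotypes, 0 of 7 members passed an adjusted p of 0.05, against 0.074% of all genes, and 0 had an uncorrected p below 0.05, against 13.3%. Drd1 had the smallest p of the averaged effect, with -0.40 ± 0.29 (uncorrected p 0.195, adjusted p 0.599), and Pde10a, at 0.01 ± 0.03, averaged close to 0. The deposited joint F test over 3 contrasts of the fit had an uncorrected p below 0.05 for 0 of 7 members, against 7.43% of all genes, and its smallest p among them was 0.0671, for Pde10a.

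**Figure D3:**
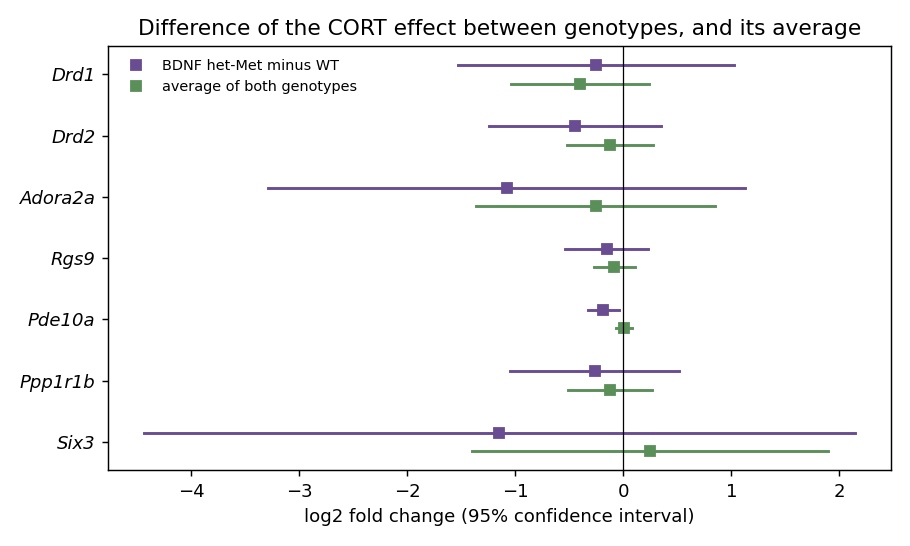
Difference of the CORT log2 fold change between genotypes (BDNF het-Met minus WT, purple) and its average over both (green) for each of the 7 genes, with 95% confidence intervals on the horizontal axis. The difference of Pde10a, from -0.33 to -0.04, is the one interval that does not cross 0.

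The wider pathway was described through fixed lists, of which 120 of 130 genes other than the members were measured. The lists were chosen with earlier results of these data known, so the shares of all genes beside them are no independent check. In WT mice 4 of the 120 were higher and 1 lower at an uncorrected p below 0.05, where 2.25% of all genes were higher and 1.57% lower. The BDNF het-Met genotype had 6 higher and 12 lower, where 6.55% and 6.64% of all genes were. For the difference between genotypes 0 were higher and 3 lower, where 1.07% and 1.34% of all genes were. By limma 0 of the 120 passed an adjusted p of 0.05 in either genotype, and 0 did for the difference with the limma standard errors. The median log2 fold change of the 120 was 0.01 for WT and -0.03 for BDNF het-Met mice. The 3 that were lower for the difference were Gnai2, Pde2a and Sp8, a transcription factor of ventral forebrain interneurons whose difference was -0.65 (uncorrected p 0.0275, named after its values were seen). No list gene passed the adjustment in either genotype.

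Of 29 other genes of striatal projection neurons, 1 was higher in WT mice at an uncorrected p below 0.05, where 2.25% of all genes were. In BDNF het-Met mice 4 were lower, where 6.64% of all genes were. The median of the 29 was 0.01 for WT and -0.13 for BDNF het-Met mice. Below VEH were 14 and 18 of 29, where 51.1% and 51.8% of all genes were. Pdyn, which encodes the precursor of the opioid peptide dynorphin and is also expressed by dentate granule cells, was at -0.24 ± 0.24 for WT and -0.56 ± 0.21 for BDNF het-Met mice (uncorrected p 0.0226 by limma). Pde1b, a calmodulin-dependent phosphodiesterase, was at 0.03 ± 0.08 for WT and -0.16 ± 0.07 for BDNF het-Met mice, signs like those of Pde10a, and the difference between genotypes had an uncorrected p of 0.0873. Gng7, the G protein gamma subunit through which striatal receptors reach adenylyl cyclase, was at 0.15 ± 0.05 in WT mice (uncorrected p 0.0125) and 0.03 ± 0.05 in BDNF het-Met mice. Many of these genes are also expressed in the hippocampus, so the list does not mark striatal cells alone.

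Of 8 genes of dopamine synthesis, transport and breakdown, 0 had an uncorrected p below 0.05 in either genotype by limma, and 0 passed the adjustment. Their medians were -0.03 for WT and 0.04 for BDNF het-Met mice. Maoa, which breaks down monoamines, was at -0.11 ± 0.08 and -0.16 ± 0.07 and had the smallest p of the list, 0.0549 in BDNF het-Met mice. Th and Slc6a3, the defining genes of dopamine neurons whose cell bodies lie outside the hippocampus, had mean expression of -0.75 and -1.68 log2 CPM.

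Among 10 genes of adenosine signalling, Adora2a stood beside others that were measured more tightly. Adora1, the inhibitory A1 receptor and the most abundant by mean expression of that list (7.79 log2 CPM), was at 0.03 ± 0.06 for WT and 0.13 ± 0.05 for BDNF het-Met mice (uncorrected p 0.0327). Adora2b, the low-affinity A2B receptor, was lower at an uncorrected p below 0.05 in both genotypes, at -0.38 ± 0.16 (p 0.0396) and -0.38 ± 0.14 (p 0.0172 by limma). Entpd1, an enzyme of microglia and vessels that begins the breakdown of extracellular ATP, was at -0.18 ± 0.10 and -0.26 ± 0.09.

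Of 20 G proteins, adenylyl cyclases and protein kinase A subunits, 2 were higher and 1 lower in BDNF het-Met mice. These counts use an uncorrected p below 0.05, at which the shares of the whole gene set were 6.55% and 6.64%. The WT count was 0 of 20, beside a share of 3.83%. Gnai2, an inhibitory G protein alpha subunit, was at -0.06 ± 0.06 for WT and -0.23 ± 0.05 for BDNF het-Met mice, with an uncorrected p of 9.82e-04 there. Adcy1 and Adcy9, which make cyclic AMP, were at 0.38 ± 0.16 and 0.22 ± 0.09 in BDNF het-Met mice. In WT mice Adcy1 and Adcy9 were at 0.22 ± 0.18 and 0.19 ± 0.10. Their differences between genotypes had uncorrected p of 0.502 and 0.791 with the limma standard errors. Of 17 other phosphodiesterases 1 was higher in WT mice, where 2.25% of all genes were. In BDNF het-Met mice 1 was higher and 2 lower, where 6.55% and 6.64% of all genes were. Pde2a was at 0.57 ± 0.24 for WT and -0.30 ± 0.22 for BDNF het-Met mice, Pde4d at 0.09 ± 0.07 and 0.18 ± 0.06, and Pde8a at -0.10 ± 0.18 and -0.40 ± 0.17.

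Partners of Ppp1r1b and Rgs9 had values on either side of VEH. Of 17 phosphatases and kinases that act with DARPP-32, 2 were higher and 2 lower in BDNF het-Met mice at an uncorrected p below 0.05. The shares of the whole gene set there were 6.55% and 6.64%. The WT count was 0 of 17, beside a share of 3.83%. Ppp1r1a, a close relative of Ppp1r1b that also inhibits protein phosphatase 1, was at -0.17 ± 0.12 for WT and -0.27 ± 0.11 for BDNF het-Met mice. Ppp3r1, the regulatory subunit of calcineurin, which dephosphorylates DARPP-32, was at -0.02 ± 0.07 and 0.15 ± 0.06. Of 11 other RGS genes and partners of Rgs9, 0 passed in WT mice, against 3.83% of all genes. In BDNF het-Met mice 2 of the 11 were lower, where 6.64% of all genes were. These were Rgs10, a regulator expressed in microglia, at -0.25 ± 0.13 and -0.45 ± 0.11, and Rgs16 at -0.18 ± 0.14 and -0.37 ± 0.12. Gnb5, the obligate partner of the Rgs9 protein, was at 0.04 ± 0.05 and -0.0042 ± 0.04. Of 10 relatives of Six3 and other ventral forebrain transcription factors, 1 was higher in WT mice, Dlx5 at 0.51 ± 0.21, where 2.25% of all genes were. In BDNF het-Met mice 0 of the 10 passed, where 13.2% of all genes did.

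**Figure D4:**
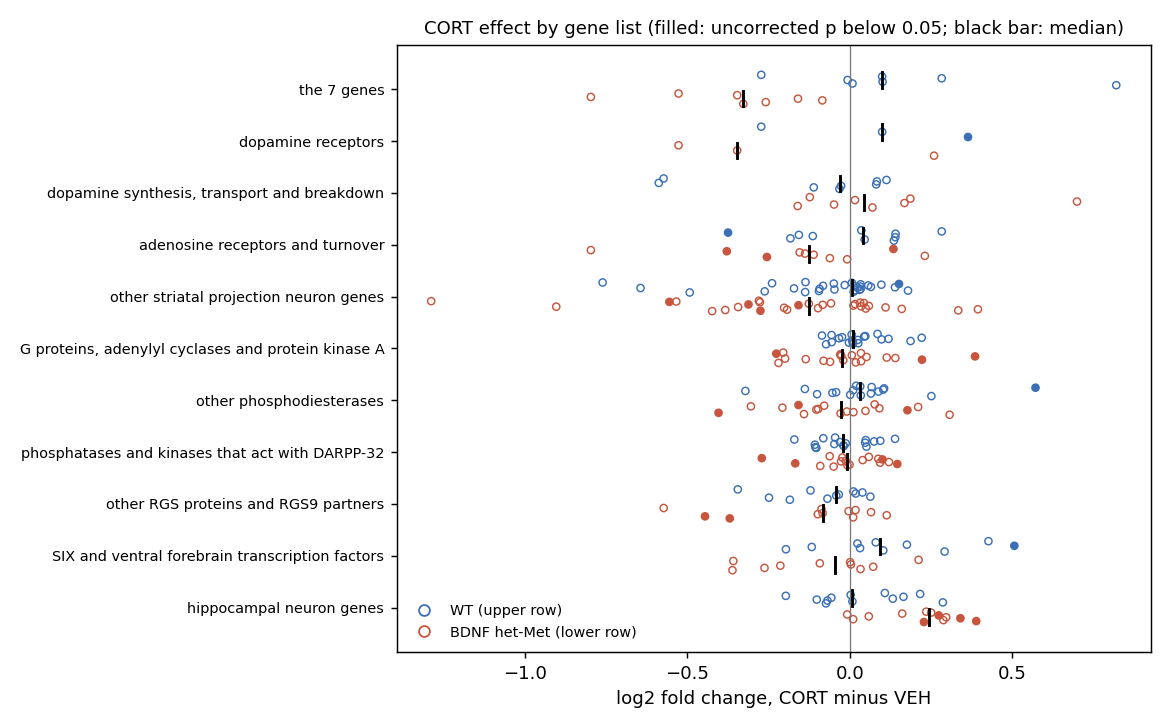
CORT log2 fold change (horizontal axis) of every measured gene of each list, in WT (blue, upper row) and BDNF het-Met mice (red, lower row). Filled points had an uncorrected p below 0.05, and black bars mark the medians, which for the 7 genes were 0.10 and -0.33 and for hippocampal neuron genes 0.0049 and 0.24.

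Markers of other cells were read beside the members. In BDNF het-Met mice, where all 7 members were below VEH, 11 of 12 hippocampal neuron genes were above it, with a median of 0.24. At an uncorrected p below 0.05, 4 of the 12 were higher. Over all genes 51.8% were below VEH there, and 6.55% were higher at that p. In WT mice 7 of the 12 were above VEH, where 48.9% of all genes were, with a median of 0.0049 for the 12. In each genotype 10 of the 12 had errors above the 95th percentile for their expression. Genes of 1 cell type can vary together between libraries, so these are not 12 separate observations. Of the 4 mossy cell genes, which bear on Drd2, 3 were below VEH in BDNF het-Met mice, where the median was -0.12. The one above it, Ociad2 at 0.30 ± 0.08, was also the one with an uncorrected p below 0.05, while Calb2 was at 0.08 ± 0.20 for WT and -0.19 ± 0.18 for BDNF het-Met mice. The median of 10 choroid plexus genes was -1.09 in WT mice, where 10 of 10 lay below VEH, and 0.17 in BDNF het-Met mice, with 8 of 10 above, and their median standard errors were 1.51 and 1.44. The 9 thalamus genes had medians of -0.14 and -0.13. The part of these cell types in the values of the 7 genes was not tested. In bulk tissue, fewer cells of a type and less RNA per cell cannot be told apart.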

How the data were processed

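RNA was measured in 12 libraries of 4 groups, read from a single end over 75 bp at a planned 35 to 40 M per library. The depth reached is unknown, since the deposited tables hold fitted values. The authors aligned reads with STAR to GRCm38, assigned them to genes with featureCounts and tested them with limma-voom. Not given in the sources used here were versions, the low-expression filter, normalization factors and use of strand. The deposited log2 values are mean expression (log2 CPM), fold change and its ordinary standard error. The deposited scores are the moderated t and joint F, and the deposited p-values are uncorrected, adjusted and joint. These are the comparisons of the authors themselves, used here because the tables hold nothing else. The listed residual degrees of freedom are 7, where 12 libraries in 4 groups leave 8, so the fit may hold a further term. For 610 genes the joint F is smaller than 2 independent effects would give, so the effects were not fully independent, and errors of differences and averages are approximate.

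Listed fold changes, taken as VEH minus CORT from the names of the comparisons, were turned to CORT minus VEH. Turned this way, 7 of 14 glucocorticoid-induced genes, chosen after the data were seen, were above VEH in WT mice and 10 of 14 in BDNF het-Met mice. At an uncorrected p below 0.05, 3 were above and 1 below in WT mice, and 4 were above and 2 below in BDNF het-Met mice (Fkbp5 0.43 ± 0.08, Plin4 1.70 ± 0.30, Sult1a1 1.12 ± 0.18 and Zbtb16 0.28 ± 0.12 above, Per1 -0.15 ± 0.05 and Nfkbia -0.26 ± 0.11 below). Tnnt1 (-0.81 ± 0.29) and Chn2 (-0.61 ± 0.14) lie below VEH in BDNF het-Met mice with this sign, and the text of the study gives them the other direction. The same text lists both in a module whose called genes it describes as higher under VEH in those mice. The moderated standard error is the fold change over t. Differences and averages of the 2 effects used their summed squared errors at 10.9 total degrees of freedom, with Python 3.11.15 and scipy 1.17.1. Exon lengths and positions came from GENCODE on GRCm38 (17551 of 17564 identifiers matched). The 7 members and the lists were chosen with earlier results of these data known. All members were named, and from each list at most the 4 genes of smallest p with an uncorrected p below 0.05 in a genotype, all dopamine receptors, and a few others said to be chosen later. Maoa, Th, Slc6a3, Gnb5, Calb2 and Sp8 were also named after their values were seen. A result on an item withheld from the text is not reported here. Genes of similar pattern were not ranked, since each gene has only 2 fold changes. The labels call the libraries of a group biological replicates, and the study drew mice from several litters. Alternatives were the ordinary standard error, centring on the median of all genes or of 5 bins of expression, a minimum of 0 log2 CPM, an uncorrected p of 0.01, and a fold change minimum of 1.5 or none.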

Additional observations from a re-analysis of the deposited data

Results flagged for a closer look

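Among the 7 genes and the list genes named by the rule, 5 had CORT effects that differed between genotypes at an uncorrected p below 0.05, and none of these passed the adjustment over all genes (adjusted p 0.9999 for each, from the limma standard errors). Pde10a differed by -0.19 (BDNF het-Met minus WT, log2, uncorrected p 0.0151), above VEH in WT and below it in BDNF het-Met mice. Pde2a differed by -0.88 (uncorrected p 0.0206), with the same order of signs, and Gnai2 by -0.17 (uncorrected p 0.0478), being below VEH in both. Neurod6, a transcription factor of pyramidal neurons, differed by 0.30 (uncorrected p 0.0409), with -0.07 ± 0.10 for WT and 0.23 ± 0.09 for BDNF het-Met mice. Tcf7l2, a transcription factor abundant in the thalamus, differed by -0.58 (uncorrected p 0.0295), with 0.23 ± 0.17 for WT and -0.35 ± 0.16 for BDNF het-Met mice. The list genes were named for a small p in a genotype, which favours a small p for the difference, so the 5 are not set against a background. Of the 120 pathway genes taken without that choice, 3 had an uncorrected p below 0.05.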

How the results depend on the processing

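Of 108 values of the 7 genes under 4 alternatives (ordinary standard errors, both centrings and the expression minimum), 103 kept their sign and their side of an uncorrected p of 0.05. The expression minimum cannot change the fold change or uncorrected p of a gene, and ordinary standard errors cannot change its sign. Part of the 103 was therefore fixed in advance. Six3 had no value among genes of at least 0 log2 CPM. The 3 that newly passed were all Pde10a: with ordinary standard errors in WT (p 0.0395) and BDNF het-Met mice (p 0.0485), so that 1 member passed in each, and centred within 5 bins of expression in BDNF het-Met mice (-0.12, p 0.0177, 1 member). Centred so, Rgs9 in WT (0.0062) and the averaged Pde10a effect (-0.0194) changed sign, both far from passing. No member passed an adjusted p of 0.05 under any alternative, and the cause of these shifts was not tested. Of the 120 list genes, those below an uncorrected p of 0.01 were 0 in WT (5 below 0.05) and 3 in BDNF het-Met mice (18 below 0.05). By the rule of the study 2 passed for WT and 5 for BDNF het-Met mice, which became 0 and 2 with ordinary standard errors, 3 in BDNF het-Met mice when centred within bins, 5 and 18 with no fold change minimum, and 0 and 0 at 1.5. With an assumed correlation of 0.1 or -0.1 between the effects of the genotypes, chosen after seeing the data, the difference of Pde10a had an uncorrected p of 0.0115 or 0.0192, and no other member passed. No paired analysis was possible because the tables hold no value per library, and leaving out each replicate was not run for the same reason. Depth per library is unknown.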
